A study of Mus musculus with 20 samples.

Results

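Transcripts of macrophages and other antigen-presenting cells were followed in plantaris muscle of old mice. The set was fixed by gene name and held 37 genes. All 37 were found among the 22660 rows of the gene table, each with exactly 1 row. The genes were ordered here by role into 9 groups, from lineage receptors to antigen presentation. The genes and the groups were chosen by name, with earlier results of these data known.

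Bulk RNA was sequenced from whole plantaris muscle of 20 male C57BL/6J mice, 5 in each of 4 groups. The mice were 2 years old per the labels and carried no engineered allele that the labels name. Mechanical overload (MOV) was induced by bilateral synergist ablation, in which part of the gastrocnemius and soleus was removed so that the plantaris carried more load. In sham surgery only the skin was opened. Vehicle, a polyethylene glycol solution, or the senolytic pair of dasatinib at 5 mg/kg and quercetin at 50 mg/kg (D + Q) was given by gavage on day 7 and day 10, and muscle was collected on day 14. The deposited design text gives day 14 for the second gavage of the sham mice. Both surgeries were combined with both treatments. Each library is 1 mouse. No adult group was sequenced, so a difference between ages cannot be read from these data.

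Macrophages are phagocytes that take up dead cells and debris, make complement and present antigen. In skeletal muscle a resident population lives between the fibers, and blood monocytes enter after damage or heavy loading and mature into macrophages there. Resident cells are commonly recognised by surface receptors such as Cd163, Lyve1 and Folr2, and macrophages that handle lipid and debris by Trem2, Gpnmb and Spp1. Major histocompatibility complex (MHC) class II molecules present peptides to helper T cells, and Cd74 is the chain that escorts them through the cell.

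The muscle label was checked against 8 myofiber genes, which summed to 142881 to 161949 CPM, a unit in which the counts of every library are scaled to a common total, in vehicle sham and 151903 to 165020 CPM in D + Q sham. The same sum was 79129 to 112389 CPM in vehicle MOV and 79820 to 99051 CPM in D + Q MOV. Total counts lay between 17887495 and 26234505 per mouse. These totals were scaled by the trimmed mean of M values (TMM). The TMM factors were 0.83 to 0.885 in the sham groups and 1.06 to 1.23 in the MOV groups. With unscaled totals the median log2 fold change of all genes moved up by 0.38 in the overload response with vehicle and by 0.37 in that with D + Q. The calls then numbered 7683 higher and 1453 lower against 4482 and 4349 with TMM in vehicle mice, and 8392 and 1654 against 5129 and 4614 in D + Q mice. The 37 genes were above 0 with overload with both scalings.

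Several of these genes lie in clusters. On build GRCm39, C1qb (chromosome 4, 136606009 to 136613511), C1qc (136616466 to 136620376) and C1qa (136623223 to 136626161) are neighbours on the minus strand. The class II genes H2-Ab1 (chromosome 17, 34476663 to 34488393, plus strand), H2-Aa (34493404 to 34506798, minus strand) and H2-Eb1 (34504236 to 34535648, plus strand) are neighbours too, and the annotated ends of H2-Aa and H2-Eb1 overlap. Fcgr2b (170786186 to 170804177) and Fcgr3 (170878738 to 170893549) lie on chromosome 1. Of the 37 genes, 24 overlap another annotated gene, and strand use in the counting is not given in the sources used here. Fcgr2b and Fcgr3 share sequence. Of all stretches of 75 bases in the canonical transcript, 7.13% in Fcgr2b, 6.39% in Fcgr3, 6.04% in Clec10a, 3.19% in Aif1 and 2.53% in Lyz2 also occur in another gene, so those counts are less certain. The first partner was Fcgr3 for Fcgr2b, Mgl2 for Clec10a and Lyz1 for Lyz2.

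Promoters of 2 neighbouring class II genes and 2 neighbouring complement genes are shown because the genes of each pair moved together in the results below. The sequences are from RefSeq on build GRCm38.p6 and run from 250 bases before to 50 bases after the transcript start. In the class II promoters the capitals mark the Y box core ATTGG or its reverse complement, the site class of the factor NF-Y. In the complement promoters the capitals mark the PU.1 core GAGGAA or its reverse complement. PU.1 is the product of Spi1. H2-Aa lies at chr17:34287774-34288073 on the minus strand, H2-Eb1 at chr17:34305617-34305916 on the plus strand, C1qb at chr4:136886151-136886450 and C1qc at chr4:136892865-136893164, both on the minus strand.
H2-Aa: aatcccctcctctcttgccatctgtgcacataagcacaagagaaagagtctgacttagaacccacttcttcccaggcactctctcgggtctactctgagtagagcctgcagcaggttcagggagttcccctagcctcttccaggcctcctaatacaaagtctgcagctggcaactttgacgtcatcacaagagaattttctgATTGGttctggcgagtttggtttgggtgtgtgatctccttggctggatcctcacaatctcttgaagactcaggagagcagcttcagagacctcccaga
H2-Eb1: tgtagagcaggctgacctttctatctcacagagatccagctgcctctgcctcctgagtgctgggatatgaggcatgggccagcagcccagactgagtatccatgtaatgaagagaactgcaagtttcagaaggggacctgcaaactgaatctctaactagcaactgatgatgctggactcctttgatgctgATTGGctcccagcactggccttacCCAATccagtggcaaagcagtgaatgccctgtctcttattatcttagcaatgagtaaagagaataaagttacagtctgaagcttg
C1qb: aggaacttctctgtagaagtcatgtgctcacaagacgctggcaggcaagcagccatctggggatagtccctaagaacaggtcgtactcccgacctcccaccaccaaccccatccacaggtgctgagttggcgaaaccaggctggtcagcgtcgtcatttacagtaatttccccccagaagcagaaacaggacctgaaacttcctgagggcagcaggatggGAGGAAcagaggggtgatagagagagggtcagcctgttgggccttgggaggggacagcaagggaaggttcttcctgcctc
C1qc: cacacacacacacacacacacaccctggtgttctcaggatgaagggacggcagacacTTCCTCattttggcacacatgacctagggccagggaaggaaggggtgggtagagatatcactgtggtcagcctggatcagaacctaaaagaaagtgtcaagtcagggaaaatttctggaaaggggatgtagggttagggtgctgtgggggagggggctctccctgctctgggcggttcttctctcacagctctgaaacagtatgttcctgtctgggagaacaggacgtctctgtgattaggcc
The Y box core began 48 bases before the start in H2-Aa and 59 and 35 bases before it in H2-Eb1. The PU.1 core began 30 bases before the start in C1qb and 193 bases before it in C1qc. Over all 32851 promoters of this length, 37.4% held ATTGG and 28.3% held GAGGAA on either strand. The 26 genes of the set with an entry had 33 promoters, of which 13 held ATTGG and 18 held GAGGAA. For ATTGG that is close to the share over all promoters. A match to these letters is a description only, and binding was not measured. Adgre1, Csf1r, Spi1, Lyve1, Clec10a, C1qa, Tyrobp, Cd14, Cd74, H2-Ab1 and Cd86 were not searched.

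Overload raised nearly the whole set. In vehicle mice 36 of the 37 genes were higher in MOV than in sham at an adjusted p under 0.05 and none was lower, while 30.7% of all 14601 genes tested were called higher. The median log2 fold change of the set was 2.60, against −0.015 over all genes. In D + Q mice 37 of 37 were higher with a median of 2.81, while 34.4% of 14913 genes were called higher. Summed over the set, the level was 191.3, 256.1, 228.8, 473.5 and 378.9 CPM in vehicle sham mice 1 to 5 and 1598, 952.1, 1895, 2860 and 1546 CPM in vehicle MOV mice 1 to 5. It was 196.9, 484.6, 324.6, 323.2 and 305.2 CPM in D + Q sham and 2129, 1989, 2475, 2003 and 2246 CPM in D + Q MOV. The lowest MOV mouse therefore lay above the highest sham mouse in both treatments. Every MOV mouse was above every sham mouse for 33 of the 37 genes with vehicle, beside 23.8% of all genes tested, and for 35 of 37 with D + Q, beside 26.5%. Aif1, Ms4a7, Fcgr1, Trem2, Cd84 and Cd86 in both treatments, and Spi1 with vehicle, had too few sham mice at 10 counts to reach the count minimum without their MOV mice. In bulk muscle, more cells of a type and more RNA per cell cannot be told apart.

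**Figure D1:**
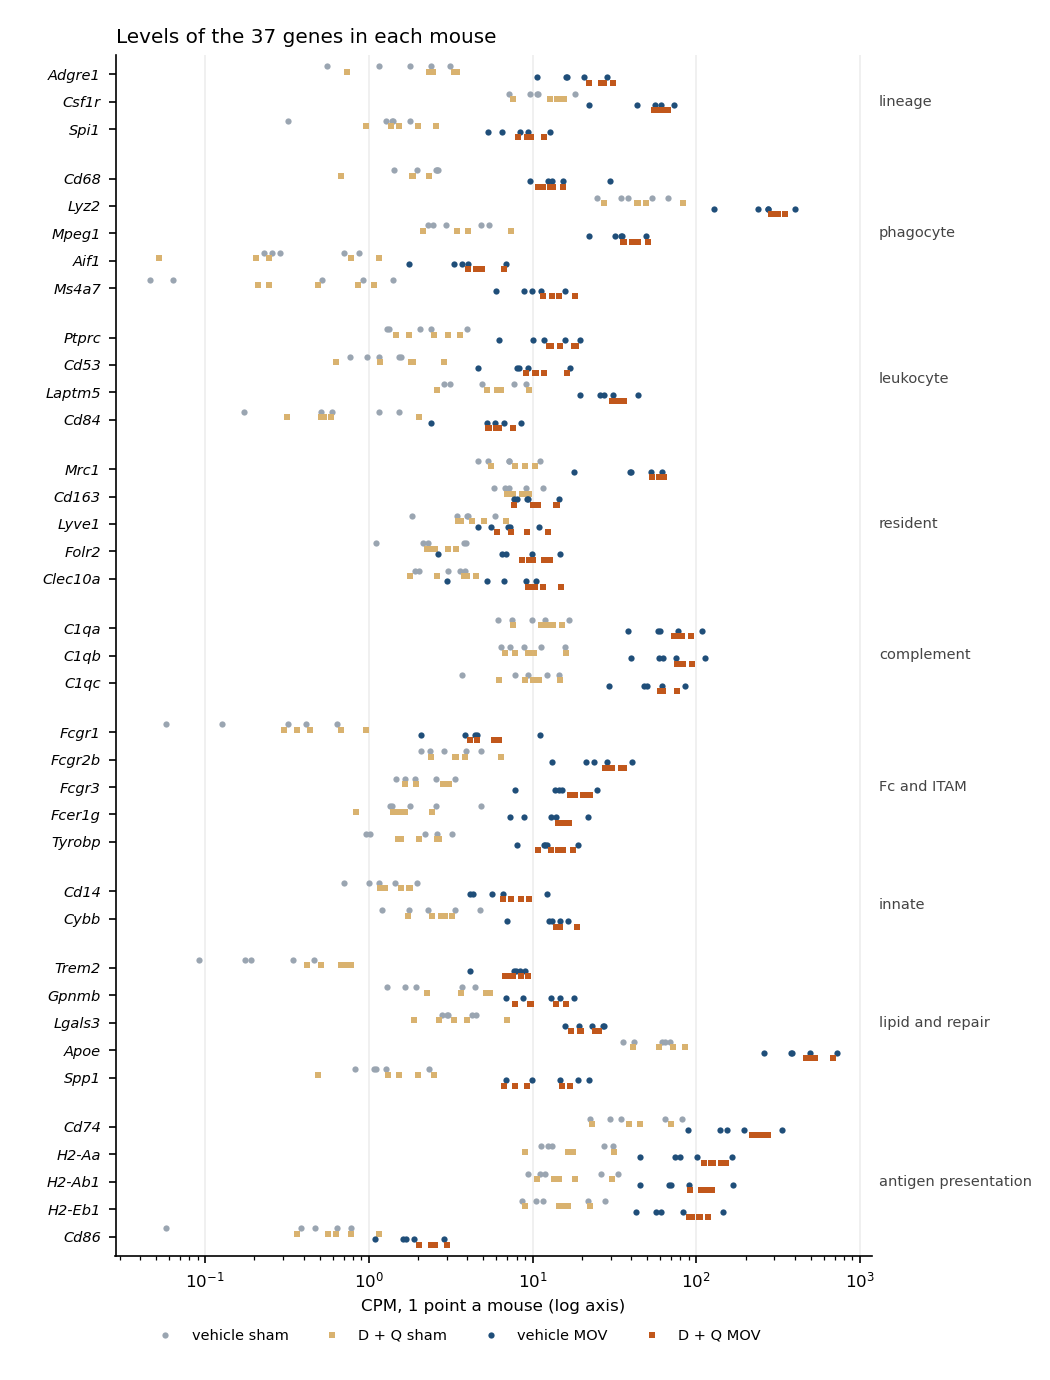
CPM on a log axis for each of the 37 genes, with 1 point a mouse and 5 mice in each of the 4 groups, ordered by role. The MOV points lie to the right of the sham points for most genes, and the groups overlap for Cd163 and Lyve1 with both treatments and for Folr2 and Clec10a with vehicle.

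The lineage genes were among those that rose. Adgre1 encodes the macrophage surface antigen F4/80. It was 0.551, 1.15, 1.78, 3.13 and 2.41 CPM in vehicle sham mice and 15.9, 10.7, 20.6, 28.5 and 16.3 CPM in vehicle MOV mice. The log2 fold change was 3.38 ± 0.40 (SE, n = 5 per group, edgeR adjusted p = 3.43e-05). With D + Q it was 0.733, 3.47, 3.31, 2.47 and 2.34 CPM in sham and 27.1, 22.2, 30.9, 26 and 27.2 CPM in MOV, a log2 fold change of 3.48 ± 0.25 (adjusted p = 3.14e-07). Csf1r, the receptor for the macrophage growth factor CSF1, lay at 7.17, 10.6, 9.63, 18.1 and 10.8 CPM in vehicle sham and at 43.6, 22.1, 60.8, 72.7 and 56.1 CPM in vehicle MOV. Its groups did not overlap, and the log2 fold change was 2.19 ± 0.35 (adjusted p = 0.000493). Spi1, the transcription factor PU.1 that macrophages and other myeloid cells need to form, rose by 2.81 ± 0.35 on the log2 scale with vehicle and by 2.57 ± 0.20 with D + Q (adjusted p = 1.62e-05 and 3.78e-09).

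All 5 phagocyte and lysosome genes rose in both treatments. Lyz2, the lysozyme of macrophages, was 24.8, 38.2, 34.9, 67.6 and 53.4 CPM in vehicle sham and 272.5, 128.2, 275.3, 402.3 and 239.7 CPM in vehicle MOV. The log2 fold change was 2.60 ± 0.36 with vehicle and 2.69 ± 0.26 with D + Q (edgeR adjusted p = 0.000211 and 1.66e-05). Mpeg1, which encodes a pore-forming protein of phagocytes, rose by 3.28 ± 0.28 and 3.5 ± 0.29 on the log2 scale (adjusted p = 2.45e-06 and 3.86e-06). Cd68, a lysosomal membrane glycoprotein, was 13.1, 9.58, 12.4, 15.4 and 29.8 CPM in vehicle MOV against 1.42 to 2.65 CPM in vehicle sham. Mouse 5 alone carried the high value. Its log2 fold change was 2.85 ± 0.33 with vehicle and 2.94 ± 0.20 with D + Q (adjusted p = 1.86e-05 and 2.02e-09). Ms4a7, a membrane protein of macrophages, was 1, 9, 1, 16 and 24 counts in vehicle sham and 247, 115, 241, 361 and 208 counts in vehicle MOV. Its log2 fold change was 4.16 ± 0.55 with vehicle and 4.59 ± 0.29 with D + Q, the second of these being the largest of the set in D + Q mice. Aif1, which encodes the actin-binding protein Iba1, rose by 3.08 ± 0.42 and 3.43 ± 0.42.

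Leukocyte genes that macrophages share with other white cells rose by similar amounts. Ptprc encodes CD45, which all leukocytes carry. It was 1.29 to 3.99 CPM in vehicle sham and 11.8, 6.21, 15.8, 19.5 and 10.0 CPM in vehicle MOV, a log2 fold change of 2.54 ± 0.38 (edgeR adjusted p = 0.000149). Laptm5, a lysosomal membrane protein of blood cells, rose by 2.42 ± 0.35, the tetraspanin Cd53 by 2.98 ± 0.34 and the adhesion receptor Cd84 by 2.86 ± 0.44. With D + Q the 4 genes rose by 2.52 to 3.04.

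Complement C1q is the recognition molecule of the classical pathway, and its A, B and C chains are encoded by C1qa, C1qb and C1qc. C1qa was 6.11, 9.89, 7.46, 16.8 and 11.9 CPM in vehicle sham and 60.0, 38.5, 77.2, 108.8 and 58.5 CPM in vehicle MOV. With D + Q it was 7.59, 15.2, 13.4, 12.3 and 11.2 CPM in sham and 77.6, 73.1, 93.3, 82.1 and 79.7 CPM in MOV. The 3 chains rose by 2.73 ± 0.35, 2.83 ± 0.34 and 2.54 ± 0.39 on the log2 scale with vehicle and by 2.81 ± 0.14, 3.10 ± 0.19 and 2.71 ± 0.18 with D + Q. The edgeR adjusted p-values with vehicle were 0.000121 for C1qa, 7.07e-05 for C1qb and 0.000422 for C1qc. Sham and MOV mice did not overlap for any chain in either treatment.

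Fc receptors bind antibody, and Fcer1g and Tyrobp are adaptors with an ITAM that carry the signal of Fc receptors and of Trem2 into the cell. All 5 genes of this kind rose in both treatments. Fcgr1, the high-affinity IgG receptor, had 7, 1, 2, 11 and 7 counts in vehicle sham and 111, 40, 83, 253 and 108 counts in vehicle MOV, a log2 fold change of 4.04 ± 0.55 (edgeR adjusted p = 5.06e-05). Fcgr2b, the inhibitory receptor, rose by 3.00 ± 0.33, the activating Fcgr3 by 2.80 ± 0.32, Fcer1g by 2.45 ± 0.41 and Tyrobp by 2.67 ± 0.33 with vehicle. With D + Q the 5 genes rose by 2.81 to 3.31. Fcer1g and Fcgr3 had adjusted p-values of 3.96e-11 and 2.11e-11 there. The sham range of Fcer1g was 1.34 to 4.86 CPM with vehicle and 0.837 to 2.44 CPM with D + Q, so the D + Q sham mice lay closer together.

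Of the innate effector genes, Cd14, the lipopolysaccharide co-receptor, rose by 2.40 ± 0.34 with vehicle and 2.46 ± 0.17 with D + Q. Cybb, the catalytic subunit of the phagocyte NADPH oxidase, rose by 2.26 ± 0.33 and 2.56 ± 0.15 (edgeR adjusted p = 0.000126 and 1.37e-10). Both genes were separated between sham and MOV in each treatment.

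All 5 genes linked to lipid handling and repair rose in both treatments. Trem2 encodes a lipid-sensing receptor of macrophages. It had 2, 6, 3, 8 and 3 counts in vehicle sham and 192, 80, 170, 192 and 213 counts in vehicle MOV, which is 0.0919 to 0.463 CPM against 4.14 to 9.02 CPM. The log2 fold change was 4.88 ± 0.33 (edgeR adjusted p = 2.2e-08), a value that rests on fewer than 10 counts in every vehicle sham mouse. With D + Q it had 8, 11, 15, 16 and 10 counts in sham and 173, 220, 218, 170 and 161 counts in MOV, a log2 fold change of 3.69 ± 0.19 (adjusted p = 4.6e-11). The MOV ranges of the treatments overlapped, and the sham counts ran from 2 to 8 with vehicle and from 8 to 16 with D + Q. Apoe, the lipid carrier apolipoprotein E, had the highest CPM of the set in every MOV mouse. It was 35.5 to 69.1 CPM in vehicle sham and 376.5, 259.2, 497.2, 725.1 and 382.7 CPM in vehicle MOV, a log2 fold change of 3.05 ± 0.31 (adjusted p = 1.83e-05). Spp1, the secreted phosphoprotein osteopontin, was 18.9, 6.83, 9.97, 14.8 and 22.1 CPM in vehicle MOV against 0.822 to 2.32 CPM in vehicle sham, and rose by 3.47 ± 0.38. Lgals3, the lectin galectin-3, rose by 2.68 ± 0.18 and Gpnmb, a transmembrane glycoprotein of phagocytes, by 2.25 ± 0.37 (adjusted p = 3.84e-08 and 0.000323). With D + Q, Gpnmb rose by 1.42 ± 0.25 and Spp1 by 2.90 ± 0.40. Apoe, Lgals3, Gpnmb and Spp1 are also made by other cells of muscle, so bulk levels do not place them in macrophages.

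All 5 antigen presentation genes rose, by 1.95 to 2.31 on the log2 scale with vehicle and by 1.87 to 2.88 with D + Q. Cd74 was 29.9, 22.3, 34.9, 81.5 and 64.7 CPM in vehicle sham and 153.7, 88.4, 197.0, 331.8 and 140.2 CPM in vehicle MOV. The groups were apart by a small margin, 88.4 against 81.5 CPM, and the log2 fold change was 1.97 ± 0.47 (edgeR adjusted p = 0.00605). With D + Q, Cd74 was 23.0, 69.9, 45.4, 39.0 and 38.9 CPM in sham and 253.4, 236.0, 245.9, 218.9 and 273.8 CPM in MOV, a log2 fold change of 2.55 ± 0.26 (adjusted p = 2.03e-05). The class II chain genes H2-Aa, H2-Ab1 and H2-Eb1 rose by 2.31 ± 0.44, 2.28 ± 0.49 and 2.29 ± 0.45 with vehicle and by 2.88 ± 0.28, 2.7 ± 0.27 and 2.76 ± 0.20 with D + Q. H2-Aa was 13.1, 11.2, 12.5, 30.9 and 27.2 CPM in vehicle sham and 79.3, 45.6, 100.8, 166.1 and 73.9 CPM in vehicle MOV. Vehicle sham mice 4 and 5 stood above the other 3 for Cd74 and all 3 chains. Cd86, a co-stimulatory ligand for T cells, was the lowest gene of the set per kilobase in MOV and rose by 1.95 ± 0.42 and 1.87 ± 0.28 (adjusted p = 0.000933 and 1.04e-05).

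The genes of resident macrophages had the smallest median rise of the 9 groups, 1.27 with vehicle and 1.80 with D + Q, although Mrc1 rose by more. Cd163, the scavenger receptor for haemoglobin, was 5.79, 6.79, 7.20, 11.5 and 9.10 CPM in vehicle sham and 9.31, 7.66, 9.26, 14.5 and 8.0 CPM in vehicle MOV. These ranges overlapped, and Cd163 was the 1 gene of the set that did not pass with vehicle, at a log2 fold change of 0.28 ± 0.21 (edgeR adjusted p = 0.259). It passed with unscaled totals. With D + Q it was 7.64, 8.6, 8.87, 6.99 and 9.50 CPM in sham and 14.1, 10.1, 10.8, 13.9 and 7.65 CPM in MOV, a log2 fold change of 0.49 ± 0.15 (adjusted p = 0.00954) with overlapping ranges. That call was lost when all 20 mice were fitted together. Lyve1, a hyaluronan receptor, was 1.84, 5.92, 3.95, 4.05 and 3.47 CPM in vehicle sham and 7.05, 5.59, 7.25, 10.9 and 4.61 CPM in vehicle MOV. It rose by 0.90 ± 0.29 with vehicle and by 0.89 ± 0.22 with D + Q (adjusted p = 0.0159 and 0.00208), and its ranges overlapped in both. Lyve1 is also made by lymphatic endothelium. The 6 other markers of that endothelium were all higher with overload in both treatments, with a summed level of 12.3 to 18.8 CPM in the sham groups, 36.7 to 68.8 CPM in vehicle MOV and 42.4 to 62.1 CPM in D + Q MOV, and their part in the Lyve1 result was not tested.

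Folr2, a folate receptor, rose by 1.64 ± 0.46 with vehicle and 1.99 ± 0.15 with D + Q (edgeR adjusted p = 0.00982 and 3.6e-09). Its vehicle groups overlapped, since vehicle MOV mouse 2 stood at 2.64 CPM within the sham range of 1.10 to 3.93 CPM. Clec10a, a galactose-binding lectin, rose by 1.27 ± 0.32 and 1.80 ± 0.20 (adjusted p = 0.00407 and 1.58e-06), and vehicle MOV mouse 2 at 3.00 CPM again lay within the sham range of 1.91 to 3.88 CPM. Mrc1, the mannose receptor CD206, behaved unlike the other 4. It was 5.37, 7.19, 4.65, 11.1 and 7.22 CPM in vehicle sham and 40.1, 17.9, 52.9, 61.3 and 39.2 CPM in vehicle MOV. The log2 fold change was 2.58 ± 0.36 with vehicle and 2.92 ± 0.12 with D + Q (adjusted p = 0.000161 and 2.44e-11).

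**Figure D2:**
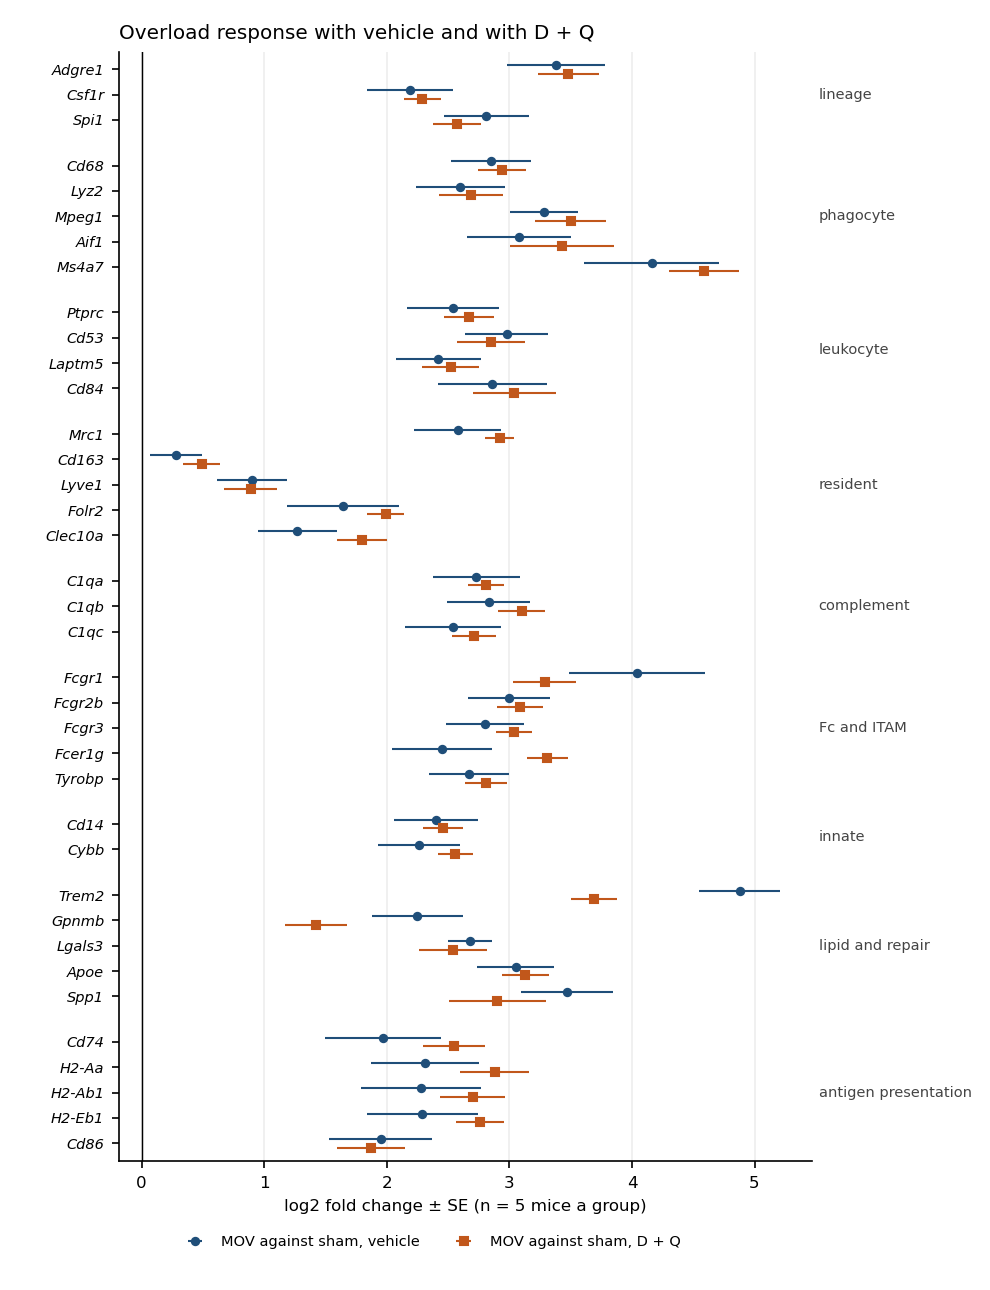
Log2 fold change of MOV against sham with its standard error for each gene, in vehicle mice (blue circles) and D + Q mice (orange squares), 5 mice a group. All values lie above 0, with Cd163 nearest to 0 at 0.28 and 0.49 and Trem2 farthest with vehicle at 4.88.

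The set changed in its make-up as well as its level. Within the summed CPM of the 37 genes, the 5 resident genes made up 7.21 to 9.79% in vehicle sham and 6.23 to 10.9% in D + Q sham. They made up 3.87 to 4.67% in vehicle MOV and 4.16 to 5.20% in D + Q MOV, so no MOV mouse reached the sham range. The 5 Fc receptor and adaptor genes moved the other way, from 2.95 to 3.61% in vehicle sham to 3.84 to 4.30% in vehicle MOV. Their D + Q ranges, 3.02 to 3.68% and 3.64 to 4.24%, met at the edge. The lipid and repair genes were 16.9 to 29.0% in vehicle sham and 27.6 to 31.1% in vehicle MOV. Antigen presentation genes were 20.1 to 37% and 22.0 to 28.4% in the same groups, with overlap. These shares are dominated by Apoe, Lyz2 and Cd74 and carry no test.

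A second description set each gene against Adgre1 in the same mouse. The Adgre1 counts behind it were low in sham, 12 to 68, and higher in MOV, 207 to 716. The log2 ratio to Adgre1 was lower in every MOV mouse than in every sham mouse for 16 of 36 genes with vehicle and for 17 with D + Q. The same count was not made over all genes, so these numbers have no background share. The 11 genes lower in both treatments were Csf1r, Lyz2, Cd163, Lyve1, Folr2, Clec10a, C1qa, C1qc, Cd74, H2-Ab1 and H2-Eb1. Adgre1 itself rose by 3.38 with vehicle and 3.48 with D + Q, above the set medians of 2.60 and 2.81. A gene that rose by less than Adgre1 falls in this ratio, and the log2 fold changes of these 11 were all above 0. For Cd163 the mean ratio went from 2.35 ± 0.64 (SD, n = 5) in vehicle sham to −0.88 ± 0.26 in vehicle MOV, and for Cd74 from 4.76 ± 0.60 to 3.24 ± 0.19. Ms4a7 with D + Q was the 1 gene whose ratio was higher in every MOV mouse, at −2.21 ± 1.07 in sham and −0.97 ± 0.14 in MOV.

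**Figure D3:**
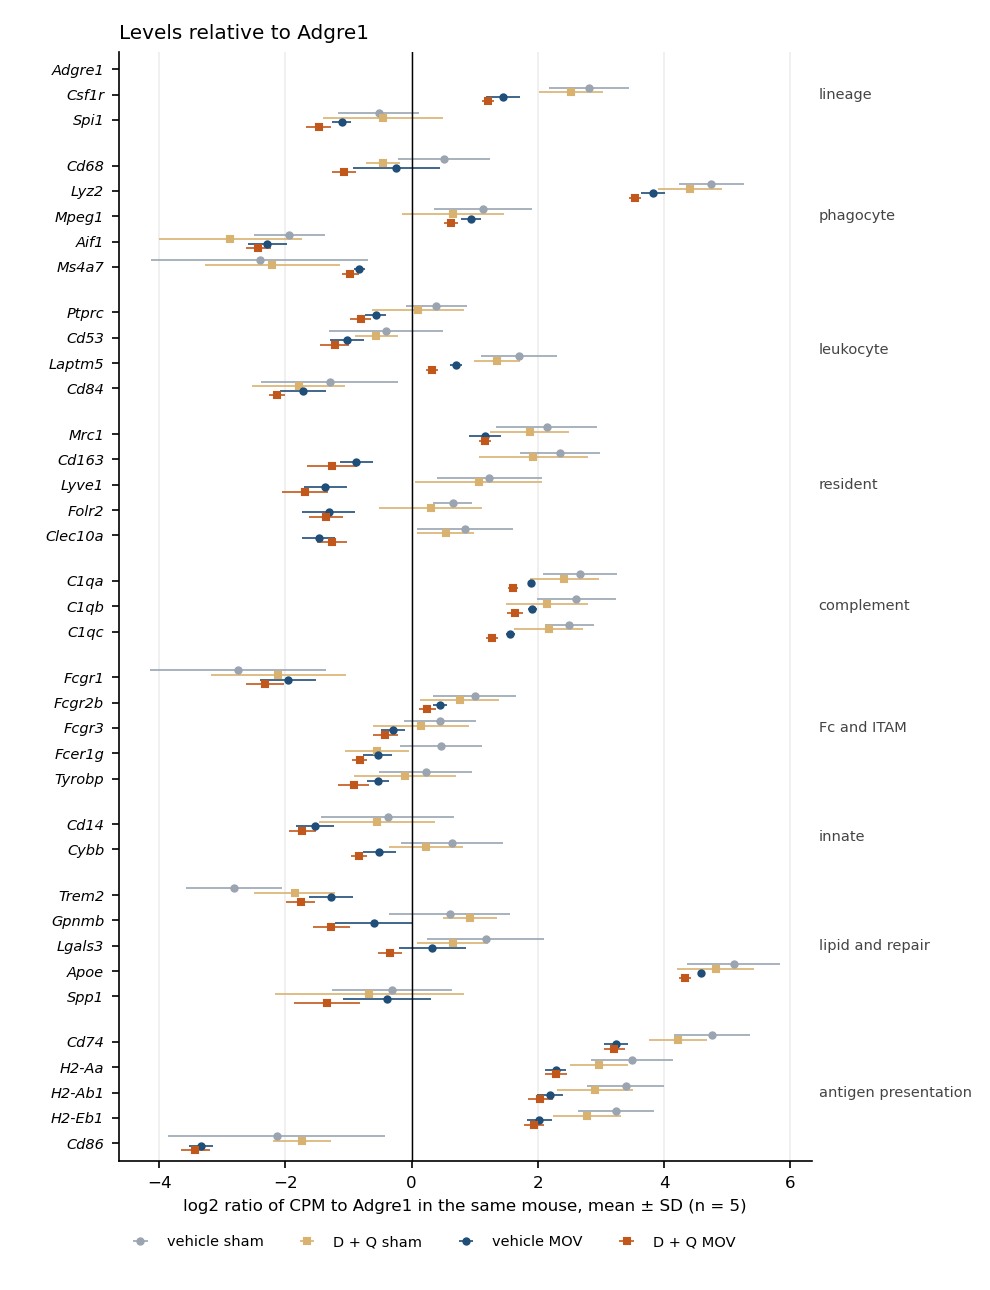
Log2 ratio of each gene's CPM to that of Adgre1 in the same mouse, as mean and SD over 5 mice in each of the 4 groups. The means of Cd163, Lyve1, Folr2 and Clec10a lie above 0 in sham and below 0 in MOV. So do those of Ptprc, Fcgr3, Cybb and Gpnmb, while Mrc1 stays above 0. Ms4a7 lies further left in sham than in MOV. Trem2 does so with vehicle, but with D + Q its means are close, at −1.85 in sham and −1.76 in MOV.

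Levels between genes were compared per kilobase of canonical transcript. In vehicle sham the highest mean levels were Cd74 at 32.6, Apoe at 24.9, H2-Aa at 16.8, H2-Ab1 at 15.1 and Lyz2 at 14.6 CPM per kilobase. In vehicle MOV they were Apoe at 205.5, Cd74 at 127.3, Lyz2 at 88.0, H2-Aa at 82.6, H2-Ab1 at 72.7 and C1qa at 63.1 CPM per kilobase. The order in D + Q MOV was Apoe at 247.3, Cd74 at 171.6, H2-Aa at 116.1 and Lyz2 at 103.6. At the low end in vehicle MOV stood Fcgr1 at 1.97, Lyve1 at 1.71, Aif1 at 1.15 and Cd86 at 0.672. In vehicle sham Cd74 varied from 22.3 to 81.5 CPM and Apoe from 35.5 to 69.1 CPM, so the order of neighbours there does not exceed the spread between mice.

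The overload responses with vehicle and with D + Q, which share no mice, ranked the 37 genes alike, with Spearman's rho 0.866 and Pearson's r 0.877 across genes, as a description. Over all 14442 genes tested in both, rho was 0.923. The response was numerically larger with D + Q for 28 of the 37 genes, and for 7927 of the 14442. The sign of this difference changed in at least 1 alternative fit for 22 of the 37. The test of that difference, the interaction of surgery and treatment over 20 mice, called none of the 37 at an adjusted p under 0.05. Of 15700 genes tested, 0.0127% were called.

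At an unadjusted p under 0.05, 1 gene of the 37 had a smaller rise with D + Q and none a larger one, beside 3.17% and 2.54% of all genes. That gene was Trem2, with an interaction of −1.23 ± 0.42 on the log2 scale (edgeR adjusted p = 0.718). Its sham counts were low, 2 to 8 with vehicle and 8 to 16 with D + Q. They were too few for the main test in sham muscle. Its difference between treatments in MOV was 0.06 ± 0.18. The interaction of Trem2 kept an unadjusted p under 0.05 in each fit without 1 mouse, and lost it in none of the other alternatives that were run. Those fits reuse the same mice and are not separate support. A count of 1 in 37 is also close to the 3.17% of all genes. Gpnmb followed Trem2 at −0.86 ± 0.48 (edgeR adjusted p = 0.862). The largest positive value was 0.82 ± 0.48 for Fcer1g (edgeR adjusted p = 0.875). The median interaction of the set was 0.10. DESeq2 and limma-voom called no gene of the set after adjustment either. DESeq2 had 1 at an unadjusted p under 0.05, Trem2, and limma-voom 2, Trem2 and Gpnmb.

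In overloaded muscle D + Q changed no gene of the set past the threshold. No gene was called at an adjusted p under 0.05 with edgeR, DESeq2 or limma-voom, and edgeR called 0.0% of all 15238 genes tested. At an unadjusted p under 0.05, 2 of the 37 were higher, beside 4.19% of all genes, and none was lower, beside 4.61%. DESeq2 had 3 such genes and limma-voom with sample quality weights 10, and the share of all genes with these methods is not given here. The fold change was above 0 for 33 of 37 genes, and the median was 0.25 against 0.002 over all genes. The share of all genes above 0 is not given here. For 5 of the 37 the sign changed in at least 1 alternative fit. All 37 were read in the same 10 mice, so their signs are not separate evidence. No gene had every D + Q mouse above every vehicle mouse, beside 0.853% of all genes.

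The 2 genes were Adgre1 and Clec10a. Adgre1 was 15.9, 10.7, 20.6, 28.5 and 16.3 CPM in vehicle MOV and 27.1, 22.2, 30.9, 26 and 27.2 CPM in D + Q MOV. All D + Q mice lay above 4 of the 5 vehicle mice, and vehicle mouse 4 lay among them. The log2 difference was 0.52 ± 0.21 (edgeR adjusted p = 0.547). Clec10a was 5.24, 3.00, 9.12, 10.5 and 6.73 CPM in vehicle MOV and 9.98, 11.6, 14.9, 9.41 and 10.4 CPM in D + Q MOV, a log2 difference of 0.69 ± 0.27 (edgeR adjusted p = 0.544). Next by p was Mrc1 at 0.48 ± 0.26, then Ms4a7 at 0.39 ± 0.21 and Cd86 at 0.42 ± 0.24.

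Antigen presentation genes had log2 differences of 0.31 to 0.48. H2-Aa was 79.3, 45.6, 100.8, 166.1 and 73.9 CPM in vehicle MOV and 126.3, 123.2, 141.6, 111.9 and 151.6 CPM in D + Q MOV, a difference of 0.48 ± 0.28 (edgeR adjusted p = 0.639). Cd74 differed by 0.42 ± 0.29, H2-Eb1 by 0.38 ± 0.29 and H2-Ab1 by 0.31 ± 0.30. The 3 C1q genes differed by 0.22 to 0.23. The genes with a fold change below 0 were Spp1 at −0.40 ± 0.36, Cd68 at −0.35 ± 0.27, Gpnmb at −0.12 ± 0.27 and Lgals3 at −0.10 ± 0.15. For Cd68, vehicle MOV mouse 5 stood at 29.8 CPM against 15.4 CPM in the next mouse of its group. Trem2 was 7.74, 4.14, 7.95, 8.41 and 9.02 CPM with vehicle and 6.79, 8.44, 9.42, 7.62 and 7.12 CPM with D + Q, a difference of 0.06 ± 0.18.

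The vehicle MOV mice were far apart. Mouse 4 had the highest value of its group for 33 of the 37 genes and mouse 2 the lowest for 34. The exceptions at the top were Gpnmb in mouse 1 and Cd68, Trem2 and Spp1 in mouse 5. The share of all counts taken by the set was 0.1795, 0.1007, 0.2202, 0.3503 and 0.1679% in vehicle MOV mice 1 to 5 and 0.2451, 0.2246, 0.3036, 0.2265 and 0.264% in D + Q MOV mice 1 to 5. The SD of log2 CPM was larger in vehicle MOV than in D + Q MOV for 36 of the 37 genes, 97.3%, with Cd163 as the exception, against 68.0% of the 15147 genes with values above 0 in all 10 mice. The median SD of the set was 0.595 in vehicle MOV and 0.194 in D + Q MOV, while over all genes it was 0.224 and 0.169. This comparison of spreads was not tested.

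The number of genes past the unadjusted threshold changed with single mice. It was 0 without vehicle MOV mouse 1, vehicle MOV mouse 5 or D + Q MOV mouse 3. Without vehicle MOV mouse 4, 27 of the 37 genes were higher with D + Q at an unadjusted p under 0.05, beside 9.58% of all genes, and the median rose from 0.25 to 0.46. Mouse 4 was the highest of its group for 33 genes, so leaving it out lowers the vehicle level of those genes. The count of 27 is therefore not separate support for a difference. None of the 27 passed after adjustment, and the lowest adjusted p was 0.0956 for Adgre1 (edgeR), at a log2 difference of 0.72 ± 0.16. H2-Eb1 then differed by 0.72 ± 0.16, H2-Aa by 0.78 ± 0.20, Cd74 by 0.74 ± 0.19 and Cd14 by 0.61 ± 0.16. Cd68, Gpnmb, Lgals3 and Spp1 stayed below 0 in this fit. Lgals3 and Spp1 were below 0 in every fit without 1 mouse, while Cd68 and Gpnmb changed sign in at least 1. Every D + Q mouse was above every vehicle mouse other than mouse 4 for 15 of the 37 genes, beside 4.0% of all genes, a count that was chosen after the values were seen. Without vehicle mouse 2, the lowest of the group, the median fell to 0.11. In mice 2 and 4, 9 fibro-adipogenic markers summed to 6085 and 12132 CPM, also the lowest and highest of the group, and the myofiber sum was 112389 and 79129 CPM, the highest and lowest. The part of these tissue differences in the results was not tested.

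**Figure D4:**
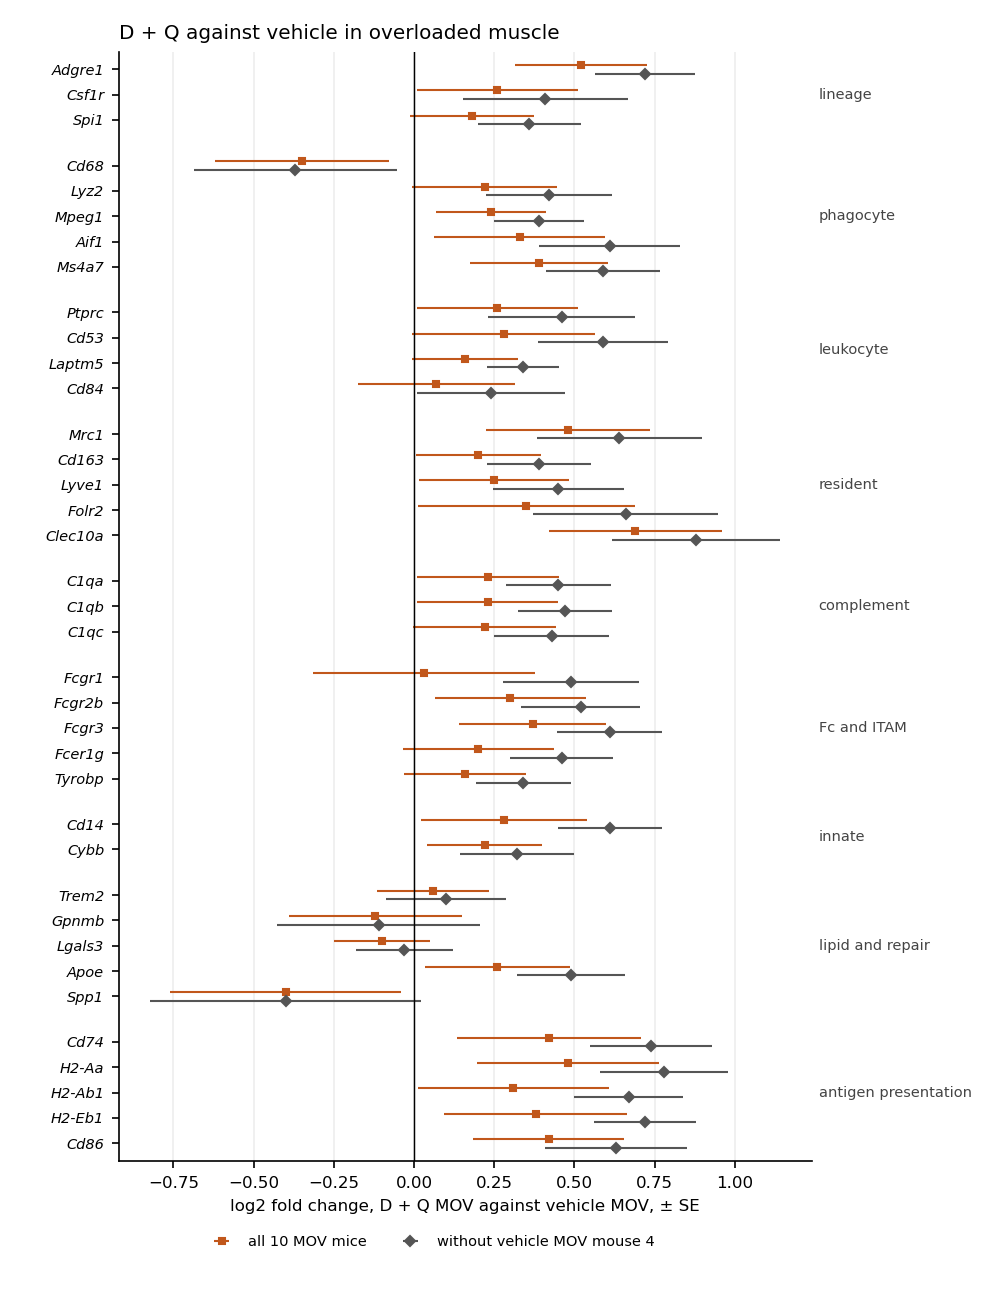
Log2 fold change of D + Q MOV against vehicle MOV with its standard error for each gene, with all 10 mice (orange squares) and without vehicle MOV mouse 4 (grey diamonds). Most genes move to the right without that mouse, such as H2-Aa from 0.48 to 0.78. Cd68, Gpnmb, Lgals3 and Spp1 are below 0 in both fits drawn. That mouse was the highest of its group for 33 genes, so leaving it out lowers their vehicle level. The fit without vehicle MOV mouse 2, where H2-Aa was at 0.31, is not drawn.

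**Figure D5:**
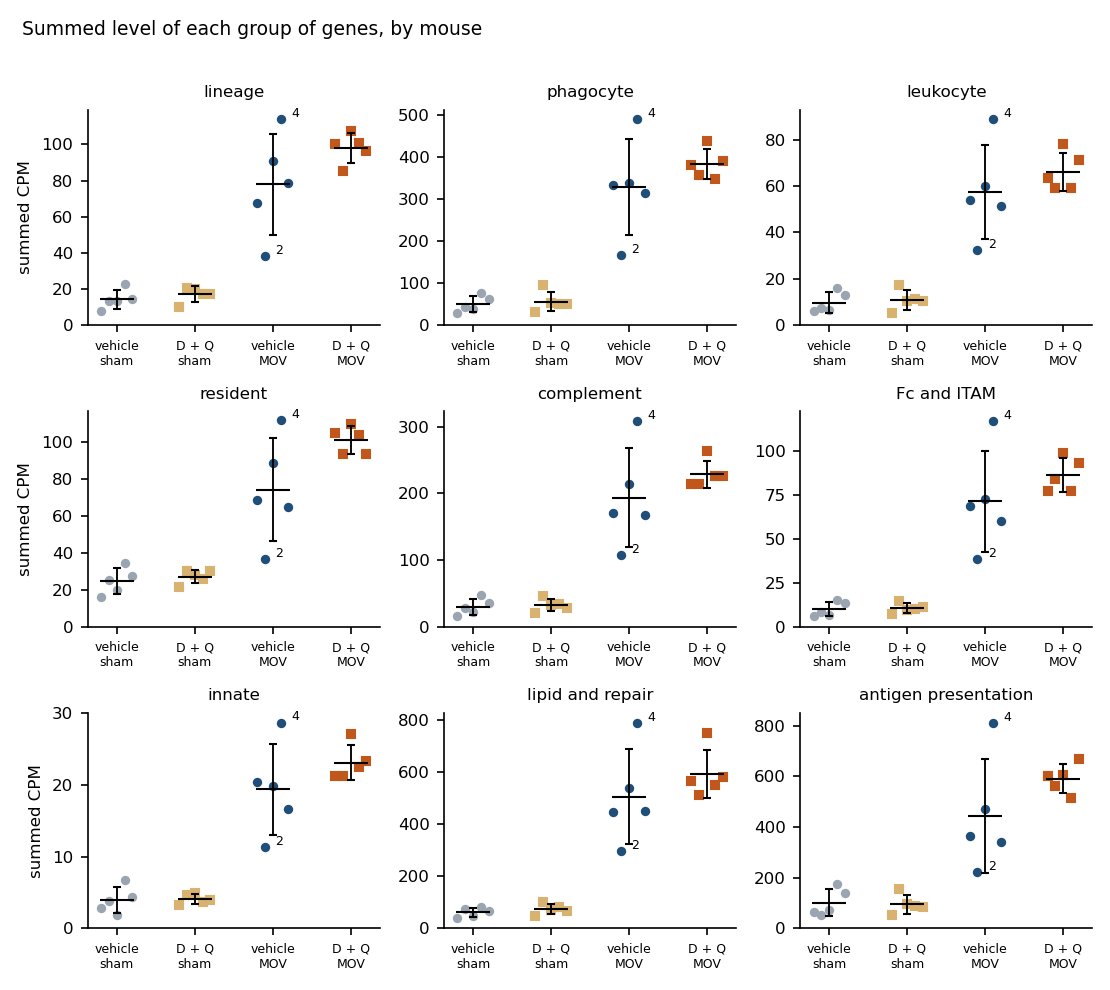
Summed CPM of each group of genes, with 1 point a mouse and the mean and SD over 5 mice in each of the 4 groups, and vehicle MOV mice 2 and 4 numbered. In all 9 panels mouse 4 is the highest and mouse 2 the lowest of the vehicle MOV mice.

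In sham muscle D + Q left the set within the spread between mice. Of the 37 genes, 33 had enough counts to test, and Aif1, Ms4a7, Fcgr1 and Trem2 did not. None of the 33 passed an adjusted p under 0.05 with edgeR, DESeq2 or limma-voom, beside 0.215% of all 13926 genes, and none passed an unadjusted p under 0.05 in either direction with edgeR, beside 5.39% of all genes for higher and 4.8% for lower. DESeq2 and limma-voom each had 1 such gene, Gpnmb. The median log2 difference was 0.15. Gpnmb was 1.29, 4.43, 1.66, 3.70 and 1.94 CPM in vehicle sham and 2.25, 5.49, 5.17, 5.29 and 3.66 CPM in D + Q sham, a log2 difference of 0.73 ± 0.35 (edgeR adjusted p = 0.497). Among genes below 0, Fcer1g had the lowest p, at −0.62 ± 0.36 (edgeR adjusted p = 0.584), followed by Cd68 at −0.41 ± 0.28. Trem2 had 2, 6, 3, 8 and 3 counts in vehicle sham and 8, 11, 15, 16 and 10 counts in D + Q sham. With no count minimum its log2 difference was 1.28 ± 0.51 (edgeR unadjusted p = 0.0168, adjusted p = 0.46). It also had an unadjusted p under 0.05 with all 20 mice in 1 edgeR fit.

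In sham muscle too, the extremes fell to a few mice. Vehicle sham mouse 4 was the highest of its group for 27 of the 37 genes and mouse 1 the lowest for 21. D + Q sham mouse 2 was the highest for 26 and mouse 1 the lowest for 28. Without any 1 mouse at most 2 genes passed an unadjusted p under 0.05 in 1 direction.

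Related genes outside the set were taken by list. Beside the overload counts of these lists and of all marker lists, 30.7% of all genes were called higher with vehicle. With D + Q 34.4% of all genes were called higher. Lower calls numbered 4349 of 14601 genes with vehicle and 4614 of 14913 with D + Q. Of 12 other genes of the class II pathway tested, 9 rose and 1 fell with overload in vehicle mice, and 11 rose and 1 fell of 13 in D + Q mice. The 1 that fell was Rfxap, a regulator of class II genes, in both. The lowest p-values were those of the lysosomal proteases and reductase Lgmn, Ifi30 and Ctss, which rose by 1.57 ± 0.13, 2.12 ± 0.25 and 3.31 ± 0.35 with vehicle (edgeR adjusted p = 2.19e-07, 8.85e-06 and 2.69e-05). Ciita, the transactivator of class II genes, had an unadjusted p under 0.05 for D + Q in MOV, at 0.52 ± 0.20 (edgeR adjusted p = 0.525). Of 4 genes of the CSF1 and GM-CSF axis, 3 rose in each treatment (Csf1, Csf2ra and Csf2rb), with Csf1 at 0.81 ± 0.26 with vehicle (adjusted p = 0.0194) and the shared cytokine receptor chain Csf2rb at 2.61 ± 0.24.

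Of 8 monocyte and recruitment genes tested, 7 rose in each treatment and none fell, with a median of 3.40 with vehicle and 3.09 with D + Q. Plac8 and the integrin chain Itgam rose by 3.2 ± 0.39 and 2.84 ± 0.30 with vehicle (edgeR adjusted p = 5.02e-06 and 7.5e-06). All 17 myeloid signalling and receptor genes tested rose in both treatments, with Ptpn6, a phosphatase that restrains these receptors, at 2.76 ± 0.27. Other genes of resident macrophages were mixed, with 6 of 11 higher and 2 lower with vehicle and 7 higher and 2 lower with D + Q. The 2 lower genes were Maf and Cbr2. The transcription factor Maf fell by 1.02 ± 0.09 on the log2 scale with vehicle and the scavenger receptor Stab1 rose by 1.98 ± 0.21 (adjusted p = 2.6e-07 and 1.04e-05).

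Of 15 other lipid and lysosome genes, 12 rose with vehicle and 12 with D + Q. The lipid uptake genes Cd36 and Lpl fell in both, and Ctsd fell with D + Q. Of 8 myeloid transcription factors, 5 rose (Cebpa, Ikzf1, Irf5, Irf8 and Runx1) and 2 fell (Mitf and Nr1h3) in each treatment, with Runx1 at 3.53 ± 0.23 with vehicle. Maf, Runx1 and many genes of the lipid list are also expressed by other cells of muscle. Over these 7 lists D + Q called none of 78 genes in MOV and none of 63 in sham at an adjusted p under 0.05 (edgeR). At an unadjusted p under 0.05, 5 were higher in MOV (Ciita, Fn1, Maf, Lipa and Abca1) and none was lower. The shares over all genes were 4.19% and 4.61%. In sham 3 were higher (Axl, Cd9 and Sirpa) and 2 were lower, beside 5.39% and 4.8% of all genes.

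Markers of other cells moved with surgery as well. The 9 fibro-adipogenic markers were all higher with overload in both treatments, with sums of 497.7 to 741.1 CPM in vehicle sham, 611.1 to 1295 CPM in D + Q sham, 6085 to 12132 CPM in vehicle MOV and 10863 to 15052 CPM in D + Q MOV. At an unadjusted p under 0.05, 5 of these 9 markers passed on the side of D + Q in MOV (Col1a1, Col1a2, Col3a1, Dcn and Lum) and 6 in sham. The shares of all genes higher were 4.19% in MOV and 5.39% in sham. Mast cell markers, 7 genes, summed to 3.62 to 14.9 CPM in vehicle MOV and 12.1 to 15.6 CPM in D + Q MOV, and 3 of the 5 tested were higher there at an unadjusted p under 0.05 (Kit, Cma1 and Cpa3).

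Lymphocyte markers were low. The T cell list, 9 genes, summed to 1.40 to 3.42 CPM in vehicle sham and 1.94 to 3.02 CPM in D + Q sham. It summed to 4.02 to 9.68 CPM in vehicle MOV and 2.99 to 7.30 CPM in D + Q MOV. With vehicle 3 of these genes were tested for overload, and Cd8a and Lck rose. With D + Q 3 were tested too, not the same 3, and Cd2 and Cd4 rose. The remaining gene was not called in either treatment, at a log2 fold change of −0.32 with vehicle and −0.18 with D + Q. The B cell list, 7 genes, stayed at or below 3.11 CPM in every mouse, the natural killer cell list at or below 1.47 CPM and the plasma cell list at or below 7.05 CPM. Dendritic cell markers, 8 genes, summed to 8.61 to 15.3 CPM over all groups, none of 3 tested was called with vehicle by edgeR at an adjusted p or had an unadjusted p under 0.05, while with D + Q Cd209a was called higher, at 1.06 on the log2 scale. Zbtb46 made up most of the sum at 6.63 to 12 CPM. Neutrophil markers summed to 8.14 CPM at most, with Csf3r and S100a9 called higher with vehicle. With D + Q, Csf3r was called higher and Mmp9 lower. Ly6g was not analysed here. Class II genes, Ptprc and Fcer1g are also made by these cells, whose part in the results was not tested. Of the other lists, 6 of 8 blood endothelium genes rose in both treatments, summing to 143.1 to 223.2 CPM in the sham groups and 222.0 to 291.4 CPM in the MOV groups. All 5 adipocyte genes tested fell with vehicle, from 156.9 to 176.6 CPM summed in sham to 93.9 to 137.8 CPM in MOV. With D + Q 3 of the 5 fell (Adipor2, Cidec and Retn). Of 6 satellite cell genes, 3 rose in each treatment (Myf5, Pax7 and Vcam1) and Cdh15 fell with D + Q. Of 5 Schwann cell genes tested, Pmp22 and Sox10 rose in each treatment and Mbp fell with D + Q. Of 6 smooth muscle and pericyte genes, 3 rose in each treatment (Acta2, Cspg4 and Pdgfrb) and Kcnj8 fell with D + Q. Over all genes 30.7% were called higher with vehicle and 34.4% with D + Q. The counts in the short satellite, Schwann and smooth muscle lists are not read as a result about those cells.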

How the data were processed

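Bulk RNA-seq of plantaris muscle from 20 mice, 5 in each of 4 groups taken from the labels, was analysed. The authors aligned the reads with STAR 2.7.8a to GRCm39 and estimated counts per gene in Partek Flow, so the deposited values are estimated counts, 29.8% of them not whole. They were rounded to whole numbers here. Total counts were 17887495 to 26234505 per mouse, and every row of the table summed to at least 10. A gene needed 10 or more counts in 5 or more mice of a fit and was then tested with the quasi-likelihood test of edgeR 4.0.16 (R 4.3.3, robust, TMM), with Benjamini-Hochberg adjustment over all genes tested and a threshold of 0.05. The comparisons were MOV against sham with vehicle and with D + Q, D + Q against vehicle in MOV and in sham, and their interaction. Values after ± are standard errors for log2 fold changes and SDs for ratios, and both p and adjusted p are two-sided.

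Alternatives were DESeq2 1.42.0, limma-voom with sample quality weights (limma 3.58.1), RLE size factors, total counts, no count minimum, a count minimum of 50, all 20 mice in 1 fit, a replicate block and leaving out each mouse. The fitting script was tested on simulated data. The members, role lists, pathway lists and marker lists were chosen with earlier results of these data known. The rule named all members and up to 3 genes of lowest p in each pathway or marker list. Other genes of these lists, such as Ciita, Rfxap and the genes behind counts of 5 or fewer, were named after their values were seen. Marker lists covered T, B, natural killer, plasma, mast and dendritic cells, neutrophils, lymphatic and blood endothelium, fibro-adipogenic, satellite, Schwann and smooth muscle cells, adipocytes and myofibers. Positions and transcript lengths were from GENCODE on GRCm39 and promoters from RefSeq on GRCm38.p6. Figures were drawn with matplotlib 3.10.9 (Python 3.11.15). Protein sequences were not analysed here.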

Additional observations from a re-analysis of the deposited data

Results flagged for a closer look

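In 7 of 148 tests of 1 gene in 1 group of 5 mice, 1 mouse stood apart by Dixon's criterion, its gap to the nearest mouse being more than 0.71 of the range of its group. Chance would give about 7.4. In vehicle MOV, Cd68 was 29.8 CPM in mouse 5 against 15.4 CPM in the next mouse. In the same group mouse 4 had 14.5 CPM of Cd163 against 9.31 CPM and 11.1 CPM of Fcgr1 against 4.57 CPM, and mouse 2 had the low value of Trem2, 4.14 CPM against 7.74 CPM. In D + Q MOV, mouse 3 had 76.0 CPM of C1qc against 63.0 CPM and 18.7 CPM of Cybb against 14.6 CPM. In D + Q sham, mouse 2 had 2.01 CPM of Cd84 against 0.585 CPM.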

How the results depend on the processing

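The calls for overload changed in the alternatives only for Cd163, which was gained with total counts only with vehicle and lost with all 20 mice in 1 fit with D + Q. Trem2 with vehicle was fitted in 5 of the 10 runs without 1 mouse, since without a vehicle MOV mouse it fell under the count minimum. With total counts only the median rise of the set with D + Q was 3.17. For D + Q in MOV, the count of genes higher at an unadjusted p under 0.05 was 10 with limma-voom, 1 with all 20 mice in 1 fit and 4 with the replicate block, and it ranged from 0 to 27 without 1 mouse. It was 27 without vehicle MOV mouse 4 and 0 without vehicle MOV mouse 1, vehicle MOV mouse 5 or D + Q MOV mouse 3. The share of all genes was 9.58% without vehicle MOV mouse 4. For the other counts at an unadjusted p in this section, the share of all genes is not given here. For D + Q in sham the count of higher genes was 1 with DESeq2, limma-voom, no count minimum or all 20 mice in 1 fit, and 2 with the replicate block. Without 1 mouse it ranged from 0 to 2, and the count of lower genes from 0 to 1. For the interaction, limma-voom gave 2 lower genes, and without 1 mouse the counts ranged from 1 to 2 lower and from 0 to 1 higher. The cause of these shifts was not tested. The labels name no pairing of mice by replicate number. Of 30 same-numbered pairs, 2 had a correlation of deviations over 0.1, with a range of −0.15 to 0.185. These correlations cannot show whether mice were matched in the design. The replicate block changed no call at an adjusted p. Low counts in sham muscle limited Aif1, Ms4a7, Fcgr1 and Trem2 most.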
